A study of Mus musculus with 20 samples.

Results

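Fibroblast growth factor (FGF) genes were followed in mouse dorsal root ganglia, which house the cell bodies of sensory neurons outside the spinal cord, 1 day after a sciatic nerve transection. Of the 22 mouse FGF genes, 10 were taken by name from the exonic count table of 78258 genes: the secreted Fgf1, Fgf2, Fgf3, Fgf7, Fgf9 and Fgf18, and the intracellular Fgf11, Fgf12, Fgf13 and Fgf14. The set was chosen by gene name and selected on the ipsilateral against contralateral level of Fgf3, which was already in view, so every ipsilateral against contralateral value of these 10 genes is given as a description without a p-value. All 10 passed the low-count filter, Fgf3 only owing to its ipsilateral libraries, and the filter left 28564 tested genes.

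The study used 10 male mice, 5 per genotype, each of which gave a contralateral and an ipsilateral library, so that there are 4 groups of 5. The conditional knockout (cKO) was Ahr fl/fl Thy1CRE-ERT2/EYFP: floxed alleles of the aryl hydrocarbon receptor gene Ahr, with a tamoxifen-dependent Cre and a yellow fluorescent protein driven by the neuronal Thy1 promoter, so that cells outside that promoter's reach keep the gene. Control mice were described as Ahr f/f or f/+, although every control library name reads ff and every control title Wildtype. The cKO library names read ffcre and their titles CRE genotype, so the labels name the Cre in the cKO group only. Every mouse in all 4 groups received tamoxifen at 100 mg/kg for 5 days at 17 weeks of age and was lesioned 4 weeks later, and its L4 to L6 ganglia were collected 1 day after that; the contralateral ganglia are thus from lesioned animals. Values are CPM, the reads of a gene per M (mega) of counted reads, scaled by the trimmed mean of M-values (TMM).

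FGFs fall into ligands and intracellular proteins. A secreted FGF binds an FGF receptor tyrosine kinase together with heparan sulphate, and the receptor signals through the adaptor Frs2, Grb2 and Sos1 to the ERK kinases, which switch on ETV transcription factors and the Sprouty and DUSP feedback inhibitors. The intracellular FGFs, also called FGF homologous factors, are not secreted and bind the cytoplasmic end of voltage-gated sodium channels, where they tune channel availability in neurons. Fgf1 is a ligand long known for its abundance in sensory neurons, and Fgf3 is best known as a ligand of inner ear and tail development.

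Libraries held 76.2 to 118.5 M counts. Sensory neuron markers were high in every group: the summed level of 9 markers ran from 7592 to 8628 CPM in control contralateral, 7656 to 8473 in control ipsilateral, 7531 to 8766 in cKO contralateral and 7314 to 7987 in cKO ipsilateral ganglia. Atf3, a transcription factor induced in axotomised neurons, stood at 8.46 to 13.8 CPM on the contralateral and 370 to 462 CPM on the ipsilateral side, higher on the side labelled as lesioned. Ahr, counted over all its exons and not only the floxed part, was at 24.2 ± 2.10 CPM in control and 20.4 ± 0.536 CPM in cKO contralateral ganglia (SD, n = 5), a difference that was not called (log2 -0.25 (SE 0.07), adjusted p = 0.103). On the ipsilateral side Ahr was at 34.4 ± 2.86 and 31.9 ± 2.94 CPM, and the difference was not called (log2 -0.11 (SE 0.07), adjusted p = 1.00).

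Promoter sequences are shown first for Fgf3 and its neighbour Fgf4, since these genes lie next to each other and only the first was higher on the ipsilateral side, and for Fgf11, the intracellular member that was higher on the ipsilateral side. They are RefSeq sequences of build GRCm38.p6, each running from 250 bases before to 50 bases after the annotated start, at chr7:144838362-144838661 on the plus strand for Fgf3, chr7:144861136-144861435 on the plus strand for Fgf4 and chr11:69802231-69802530 on the minus strand for Fgf11. Capitals mark a match to any of the searched motifs.
Fgf3: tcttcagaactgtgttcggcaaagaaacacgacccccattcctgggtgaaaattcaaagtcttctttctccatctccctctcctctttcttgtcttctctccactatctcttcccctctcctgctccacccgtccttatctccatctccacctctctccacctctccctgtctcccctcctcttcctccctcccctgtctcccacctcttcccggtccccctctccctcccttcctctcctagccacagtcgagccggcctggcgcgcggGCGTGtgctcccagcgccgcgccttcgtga
Fgf4: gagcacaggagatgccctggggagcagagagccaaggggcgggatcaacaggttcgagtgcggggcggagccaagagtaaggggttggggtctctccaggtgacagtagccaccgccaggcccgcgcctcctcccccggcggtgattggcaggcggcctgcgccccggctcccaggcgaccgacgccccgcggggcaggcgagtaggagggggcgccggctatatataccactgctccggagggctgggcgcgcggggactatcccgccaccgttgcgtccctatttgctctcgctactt
Fgf11: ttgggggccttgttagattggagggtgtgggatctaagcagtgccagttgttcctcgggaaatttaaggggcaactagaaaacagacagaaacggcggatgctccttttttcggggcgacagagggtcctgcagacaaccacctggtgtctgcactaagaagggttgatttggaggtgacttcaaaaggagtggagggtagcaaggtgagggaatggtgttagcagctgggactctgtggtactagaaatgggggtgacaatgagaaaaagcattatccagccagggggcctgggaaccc

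Motifs searched on both strands were the AP-1 site TGANTCA, the cAMP response element TGACGTCA, the aryl hydrocarbon receptor core GCGTG, the E-box CACGTG and the TATA box TATAAA; none of these 5 strings contains another, although GCGTG and CACGTG can overlap. The Fgf3 window held 1 GCGTG, at position +21 from the start, and no match to the other 4. The windows of Fgf4 and Fgf11 held no match to any of them. Among all 32851 promoter windows of the same length, 32.4% held GCGTG, 7.81% the AP-1 site, 1.79% the cAMP response element, 7.15% the E-box and 13.6% the TATA box. Of the 10 FGF genes, 9 had a promoter entry and Fgf1 did not. GCGTG was found in 5 of the 9, namely Fgf3, Fgf2, Fgf7, Fgf12 in 4 of its 4 windows and Fgf13 in 1 of 4. This counts genes, some with 4 windows, whereas 32.4% is a share of single windows, so the values are not comparable. An AP-1 string was found in 1 of 4 windows of Fgf12, at position -132, and in 1 of 4 windows of Fgf13, at position -156. These matches describe letters in a window and are not evidence of binding.

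Fgf3 was close to undetected in the contralateral ganglia and readily counted in the ipsilateral ones. In control mice H62, H63, H65, H96 and H97, the order kept for control values below, its contralateral level was 0.254, 0.147, 0.0795, 0.0996 and 0.112 CPM and its ipsilateral level 18.6, 18.03, 20.4, 14.8 and 13.4 CPM. In cKO mice H61, H64, H95, H99 and H100, the order kept for cKO values, it was 0.0909, 0.0761, 0.0222, 0.133 and 0.124 CPM on the contralateral side and 17.8, 19.1, 16.7, 13.1 and 14.2 CPM on the ipsilateral side. Every ipsilateral library thus lay far above every contralateral one, with control means of 0.138 ± 0.0690 and 17.04 ± 2.87 CPM and cKO means of 0.0892 ± 0.0441 and 16.2 ± 2.49 CPM (SD, n = 5). In ganglion RNA of this kind, a change in the number of cells that express a gene and a change in RNA per cell cannot be told apart.

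Raw counts show how thin the contralateral baseline of Fgf3 was: 2 to 24 reads per library against 1228 to 2249 on the ipsilateral side. Summed over the 5 control mice, 65 contralateral and 7292 ipsilateral counts gave a depth-adjusted ratio of 124 (95% exact interval 96.95 to 160.5), and in cKO mice 37 and 8393 counts gave 185 (134 to 263); these intervals cover counting error only. Taken mouse by mouse the ratio was 73.3 to 256 for the control animals and 98.4 to 753 for the cKO animals, the widest value coming from H95 with 2 contralateral reads. The fitted log2 differences were 6.95 (SE 0.25) in control and 7.50 (SE 0.27) in cKO mice.

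Ipsilateral Fgf3 also differed between the 2 ranges of mouse numbers. The 5 mice numbered 61 to 65, of both genotypes, had 17.8 to 20.4 CPM, and the 5 numbered 95 to 100 had 13.1 to 16.7 CPM, without overlap. On the contralateral side the same ranges gave 0.0761 to 0.254 and 0.0222 to 0.133 CPM, which overlap. The labels do not call these ranges batches, and each holds mice of both genotypes. The ranges were compared for Fgf3, Fgf15 and Atf3 only. The share of all tested genes without overlap between them was not computed, so the separation is not read as particular to Fgf3. Ipsilateral Atf3 was 429 to 462 CPM in the lower numbers and 370 to 439 CPM in the higher ones, so its ranges overlapped.

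**Figure D1:**
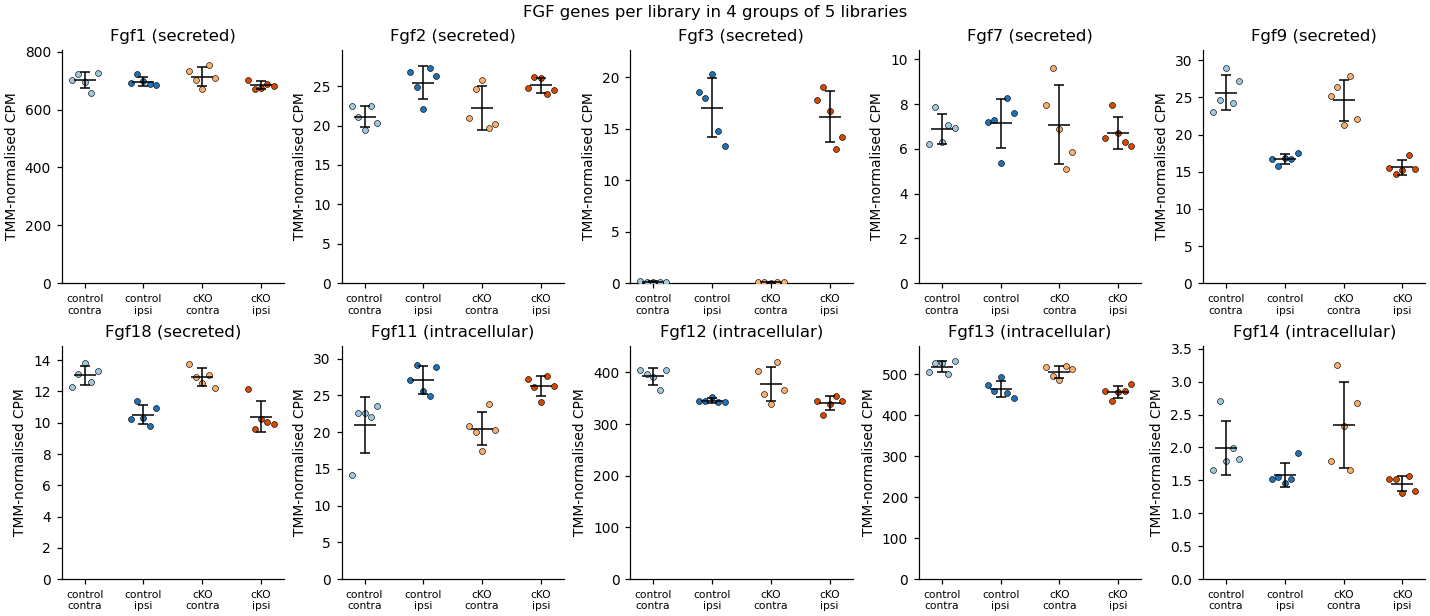
TMM-normalised CPM of the 10 FGF genes in 20 libraries, in 4 groups of 5 (each point a library, horizontal bar the mean, error bar 1 SD; every axis starts at 0 and has its own scale). Fgf3 is near 0 on both contralateral sides and at 13.1 to 20.4 CPM on the ipsilateral sides, while Fgf9 and Fgf18 sit lower and Fgf11 higher on the ipsilateral side.

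Fgf9, a ligand first described as a glia-activating factor, had the largest relative difference among those of the 6 secreted FGFs chosen that were lower on the ipsilateral side, to about 0.653 of the contralateral level in control and 0.634 in cKO mice. In control mice it stood at 23.1, 24.7, 28.9, 24.3 and 27.3 CPM on the contralateral side and 16.8, 15.8, 16.8, 16.7 and 17.6 CPM on the ipsilateral side. The cKO values were 25.2, 26.4, 21.3, 27.9 and 22.1 CPM and 15.5, 14.7, 15.2, 17.2 and 15.3 CPM. No ipsilateral library of either genotype reached the lowest contralateral one, and the level was lower in 10 of 10 mice. Means went from 25.6 ± 2.38 to 16.7 ± 0.643 CPM (log2 -0.62 (SE 0.07)) and from 24.6 ± 2.81 to 15.6 ± 0.963 CPM (log2 -0.66 (SE 0.07)).

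Fgf18, a ligand known from bone and cartilage growth, was lower on the ipsilateral side by a smaller margin. Its control levels were 12.3, 13.1, 13.9, 12.6 and 13.3 CPM contralaterally and 10.3, 11.4, 10.3, 9.76 and 10.9 CPM ipsilaterally. Its cKO levels were 13.8, 12.9, 12.5, 13.1 and 12.2 CPM and 12.1, 9.62, 10.3, 10.1 and 9.90 CPM. The sides did not overlap in either genotype, although the ipsilateral library of H61, at 12.1 CPM, came within reach of the lowest contralateral one at 12.2 CPM. The log2 difference was -0.31 (SE 0.06) in control and -0.31 (SE 0.06) in cKO mice, with the ipsilateral library lower in 10 of 10 mice.

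Fgf2, the basic FGF that lacks a classical signal peptide, was modestly higher on the ipsilateral side. Control values were 22.4, 21.03, 19.4, 22.5 and 20.3 CPM contralaterally and 26.8, 24.9, 22.1, 27.3 and 26.3 CPM ipsilaterally. The cKO values were 20.96, 24.6, 25.8, 19.6 and 20.2 CPM and 24.8, 26.2, 26.02, 24.03 and 24.5 CPM. The sides overlapped in both genotypes, yet within each of the 10 mice the ipsilateral library was the higher, by factors of 1.14 to 1.30 in control and 1.01 to 1.22 in cKO mice. The log2 difference was 0.27 (SE 0.07) in control and 0.18 (SE 0.07) in cKO mice, and only the control value was called. With mouse as a replicate block the cKO value, then 0.18, was called too. Of the exon bases of Fgf2, 9.44% are shared with Nudt6 on the opposite strand and 3.76% with Gm43439 on the same strand, and the strand setting of the counting is not given in the sources used here.

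Fgf1 and Fgf7 showed no called difference between sides. Fgf1, acidic FGF, ranged over 659 to 727 CPM in control contralateral, 684 to 724 in control ipsilateral, 671 to 756 in cKO contralateral and 669.8 to 704 CPM in cKO ipsilateral ganglia. Its log2 difference was -0.01 (SE 0.03) in control and -0.06 (SE 0.03) in cKO mice, the smallest standard errors among the ligands, and the ipsilateral library was the lower in 2 of 5 control and 4 of 5 cKO mice. Fgf7, the keratinocyte growth factor, ranged over 6.24 to 7.87, 5.36 to 8.26, 5.11 to 9.61 and 6.13 to 7.96 CPM in the same order of groups, all overlapping. Its log2 differences were 0.05 (SE 0.14) and -0.07 (SE 0.14), and mice went both ways in both genotypes.

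Among the intracellular FGFs, Fgf11 was the member that was higher on the ipsilateral side. Its control levels were 14.2, 22.5, 22.6, 22.04 and 23.5 CPM contralaterally and 27.1, 29.2, 25.6, 24.9 and 28.8 CPM ipsilaterally. Its cKO levels were 20.8, 19.99, 17.5, 23.8 and 20.3 CPM and 27.2, 26.2, 24.1, 27.6 and 26.2 CPM. The sides did not overlap in either genotype and the ipsilateral library was higher in 10 of 10 mice, with H62 far below the other contralateral controls at 14.2 CPM. The log2 difference was 0.37 (SE 0.10) in control and 0.36 (SE 0.10) in cKO mice.

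Fgf12 and Fgf13, partners of neuronal sodium channels and the abundant intracellular FGFs of the ganglion, were slightly lower on the ipsilateral side. Fgf12 stood at 405, 398, 390.1, 365 and 404 CPM in control contralateral and 344, 345, 353, 342 and 342 CPM in control ipsilateral ganglia. In cKO mice it stood at 403, 359, 339, 421 and 366 CPM and 345, 318, 338, 354 and 345 CPM, so that the sides overlapped in cKO but not in control mice. The log2 difference of Fgf12 was -0.18 (SE 0.05) in control and -0.15 (SE 0.05) in cKO mice, and the cKO call was lost without H61 (-0.13).

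Fgf13, which also binds microtubules, was at 506, 527, 527, 502 and 532 CPM in control contralateral and 475, 460.2, 494, 454 and 441 CPM in control ipsilateral ganglia. The cKO levels were 517, 497, 486, 520.4 and 513 CPM and 459, 435, 457, 459.8 and 475.9 CPM. The sides did not overlap in either genotype, and both Fgf12 and Fgf13 were lower on the ipsilateral side in 10 of 10 mice. The log2 difference of Fgf13 was -0.16 (SE 0.03) in control and -0.15 (SE 0.03) in cKO mice. Beside these values, 3 of 9 sensory neuron markers fell in each genotype, where 16.0% of all tested genes were lower in control and 15.1% in cKO mice. The median log2 difference over the 9 was -0.03 in control and -0.09 in cKO mice. The part of neuron content in the levels of Fgf12 and Fgf13 was not tested.

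Fgf14, the intracellular FGF mutated in a spinocerebellar ataxia, was the rarest of its group and the most variable. Control levels were 1.66, 2.71, 1.79, 1.99 and 1.82 CPM contralaterally and 1.51, 1.54, 1.46, 1.51 and 1.91 CPM ipsilaterally. The cKO levels were 1.80, 3.25, 2.32, 1.66 and 2.67 CPM and 1.53, 1.52, 1.30, 1.56 and 1.34 CPM. The sides overlapped in control but not in cKO mice, where H64, H95 and H100 were high on the contralateral side. The log2 difference was -0.33 (SE 0.16) in control, lower in 4 of 5 mice and not called, and -0.69 (SE 0.16) in cKO mice, lower in 5 of 5 and called; the difference between the 2 was not called (log2 -0.36 (SE 0.22), adjusted p = 0.585). The 3 mice with high contralateral Fgf14 also had the highest contralateral fibroblast marker sums of the cKO group. These were 2316, 2028 and 1736 CPM, against 1036 in H61 and 948 in H99. The same 3 mice had the highest satellite glia, macrophage, erythroid, skeletal muscle, and cartilage and tendon sums of that group, but not those of the other cell types. Among control contralateral libraries H62 had the highest fibroblast sum, 1375 CPM, and the lowest Fgf14, 1.66 CPM. The part of cell content in the Fgf14 values was not tested.

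In all, 7 of the 10 genes were called between sides in control mice, with 3 higher and 4 lower, where the share over all tested genes was 29.9%, with 13.8% higher and 16.0% lower. Among cKO animals 7 of 10 were called, with 2 higher and 5 lower, against 31.3% of all tested genes, 16.2% higher and 15.1% lower. The 2 groups of libraries did not overlap for 6 of 10 genes in control mice, where 23.6% of tested genes did not, and for 6 of 10 in cKO mice, where 20.2% did not. Because the choice of genes used this contrast, and Fgf3 passed the low-count filter only owing to its ipsilateral libraries, nothing is read from these shares. The median log2 difference of the 10 was -0.08 in control and -0.11 in cKO mice, beside -0.00 and -0.03 over all tested genes.

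**Figure D2:**
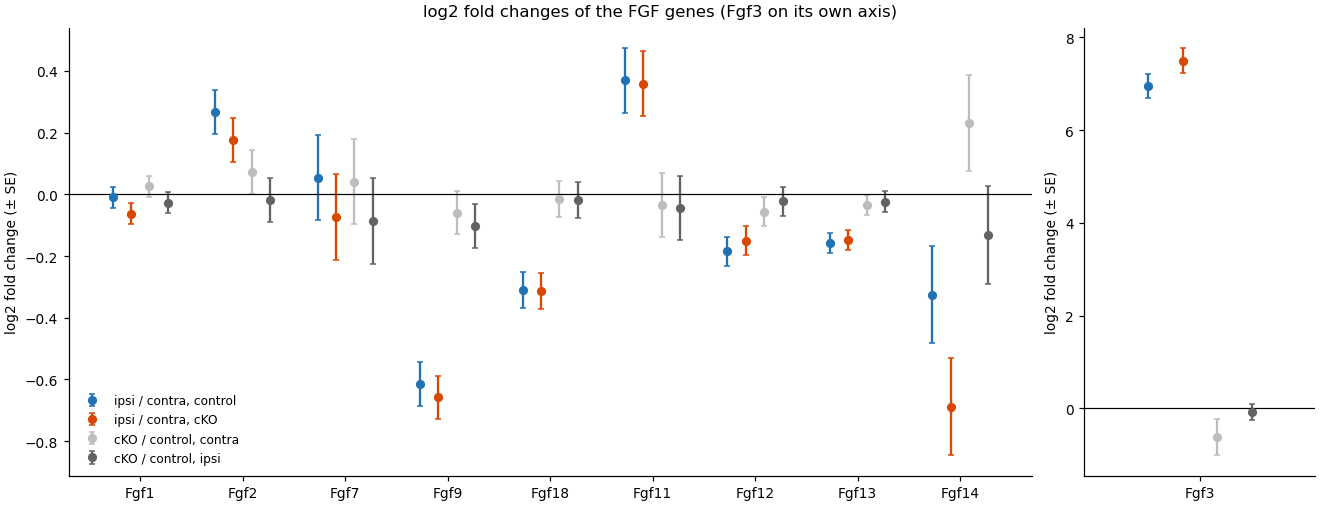
Fitted log2 differences with their standard errors (error bars) of the 10 FGF genes, for ipsilateral against contralateral ganglia in each genotype and for cKO against control mice on each side; Fgf3 has its own axis. The side differences in control and cKO mice are 6.95 and 7.50 for Fgf3, -0.62 and -0.66 for Fgf9 and -0.33 and -0.69 for Fgf14, and the genotype differences lie within 0.23 of 0 except that of contralateral Fgf3 at -0.63.

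The genotype comparison set ganglia with Ahr targeted in Thy1-expressing cells against control ganglia, and the choice of genes did not rest on it. No FGF gene of the 10 was called between cKO and control mice on the contralateral side, where edgeR's quasi-likelihood test called 0.0735% of tested genes, or on the ipsilateral side, where it called 0.00700%. None had an unadjusted p under 0.05 on either side, a share that was 17.5% and 2.36% over all tested genes, and DESeq2 called 0 of 10 on each side. Over all tested genes the contralateral count was not stable: it was 21 by edgeR, 1010 by DESeq2, 2 with only the libraries compared, 3326 without H99 and 4 to 174 without any 1 of the other mice. The ipsilateral count was 2 under each alternative and without each mouse. Ranges overlapped between genotypes for all 10 genes on both sides, while 1.52% of tested genes did not overlap on the contralateral and 0.599% on the ipsilateral side.

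The largest genotype difference among the 10 was that of contralateral Fgf3, at log2 -0.63 (SE 0.39) (adjusted p = 0.427), which rests on 65 against 37 reads and was -0.28 without H62 and -0.35 without H95. On the ipsilateral side, where Fgf3 was well counted, the difference was -0.08 (SE 0.17) (adjusted p = 1.00). Fgf14 followed with 0.23 (SE 0.16) on the contralateral side (adjusted p = 0.469) and -0.13 (SE 0.16) on the ipsilateral side. For the other 8 genes the contralateral difference lay between -0.06 for Fgf9 and 0.07 for Fgf2, and the ipsilateral one between -0.10 for Fgf9 and -0.02 for Fgf18. The standard errors of these values run from 0.03 for Fgf1 and Fgf13 to 0.14 for Fgf7, so a small genotype difference in Fgf7 would not be detectable with 5 mice per group.

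Nor did the side difference of any of the 10 genes differ between genotypes by the interaction term: edgeR called 0 of 10 and 0 of all tested genes, 9.80% of which had an unadjusted p under 0.05, and DESeq2 called 0 of 10. Over all tested genes DESeq2 called 12, and edgeR called 43 without H99 and 0 without any other mouse. For Fgf3 the interaction was 0.55 (SE 0.42) (adjusted p = 0.670), for Fgf2 -0.09 (SE 0.10) (adjusted p = 0.777) and for Fgf9 -0.04 (SE 0.10) (adjusted p = 0.910). Leaving out a mouse moved the Fgf3 interaction between 0.24, without H62, and 0.81, without H99, on the log2 scale.

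Levels can be compared between genes only per length, and the choice of length decided the order. With CPM divided by the kilobases of merged exons, control contralateral ganglia had Fgf13 at 129 ± 3.48, Fgf1 at 128 ± 5.01, Fgf12 at 63.3, Fgf18 at 11.0, Fgf11 at 6.89, Fgf9 at 5.51, Fgf2 at 3.12, Fgf7 at 2.12, Fgf14 at 0.477 and Fgf3 at 0.0595 CPM per kb. The ranges of Fgf13 and Fgf1 overlapped, and so did those of Fgf9 and Fgf11, at 4.96 to 6.22 and 4.66 to 7.72 CPM per kb; the other neighbours in that order did not. On the control ipsilateral side the order was Fgf1 at 128, Fgf13 at 116, Fgf12 at 55.7, Fgf11 at 8.90, Fgf18 at 8.87, Fgf3 at 7.33, Fgf2 at 3.75, Fgf9 at 3.60, Fgf7 at 2.20 and Fgf14 at 0.380 CPM per kb, so Fgf3 went from the last place to the sixth. There the ranges of Fgf11, Fgf18 and Fgf3 overlapped, as did those of Fgf2 and Fgf9.

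The authors' deposited FPKM equal CPM without TMM scaling divided by the span of the whole gene, introns included, and gave another order. Fgf14 spans 699221 bases and has 4182 exon bases, Fgf12 592971 and 6203, and Fgf13 505927 and 4019, whereas Fgf11 spans 5790 bases with 3044 in exons and Fgf3 6354 with 2326. In the authors' deposited values the mean over 20 libraries was 7.70 FPKM for Fgf1, 4.09 for Fgf11, 1.31 for Fgf3, 0.962 for Fgf13, 0.613 for Fgf12 and 0.00264 for Fgf14. These means pool both sides, so that of Fgf3 covers libraries from 0.00361 to 3.17 FPKM and its place is not comparable with the orders per side. The intracellular FGFs with long introns therefore stand lower there than Fgf11, although per exon length Fgf12 and Fgf13 exceed it in both control groups. Within a gene, differences between libraries are not affected by the length.

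**Figure D3:**
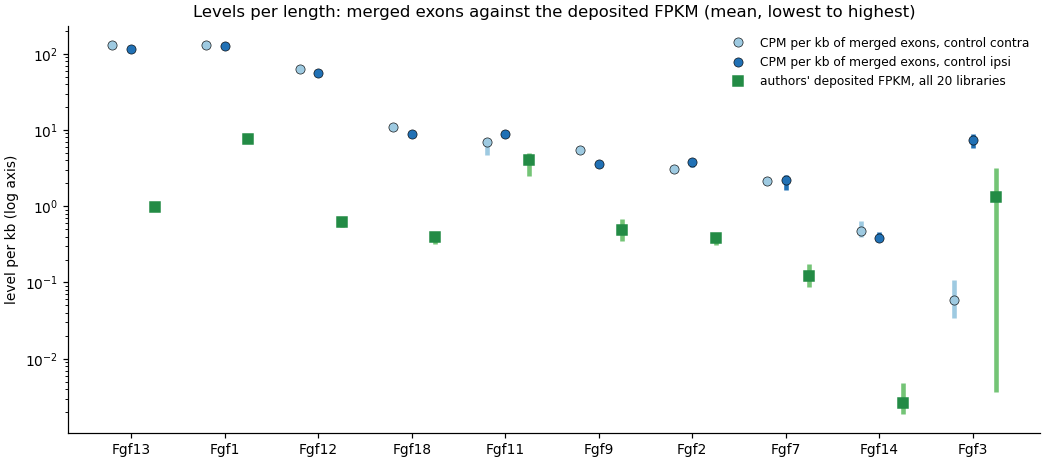
Levels per kilobase on a log axis: CPM per kb of merged exons in control contralateral and control ipsilateral ganglia (circles, mean of 5 libraries), and the authors' deposited FPKM over all 20 libraries (squares), with vertical lines from the lowest to the highest library. Fgf13 stands at 129 CPM per kb of exon but at 0.962 FPKM, and Fgf3 moves from 0.0595 to 7.33 CPM per kb between sides.

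Fgf3, Fgf4 and Fgf15 lie in a row on chromosome 7, and the gene on either side of Fgf4 was strongly ipsilateral while Fgf4 itself was not. Fgf15, an endocrine FGF best known from the gut, had 0 to 2 reads per contralateral library and 59 to 124 reads per ipsilateral one. Its control levels were 0, 0.0122, 0.00994, 0 and 0.0249 CPM contralaterally and 1.14, 0.9004, 1.34, 0.885 and 0.569 CPM ipsilaterally, and its cKO levels 0, 0, 0, 0 and 0.0248 CPM and 0.957, 1.05, 0.835, 0.719 and 0.983 CPM. Its summed counts were 4 and 410 in control mice, a ratio of 113 (95% exact interval 43.8 to 417), and 2 and 468 in cKO mice, a ratio of 191 (52.5 to 1579). Fgf15 passed the low-count filter through its ipsilateral libraries alone, and Fgf3 would not have passed without its own. The tests of Fgf15 and Fgf3 between sides are therefore not used as support.

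Fgf4, a ligand of early development, was at 1.68, 2.90, 1.72, 2.17 and 2.46 CPM in control contralateral and 1.77, 2.01, 1.65, 3.23 and 2.00 CPM in control ipsilateral ganglia. Its log2 difference was -0.03 (SE 0.25) in control (adjusted p = 0.946) and -0.12 (SE 0.25) in cKO mice (adjusted p = 0.773), and the ratio of its summed counts was 0.992 (95% exact interval 0.907 to 1.09) in control mice. The lncRNA Gm26793, which lies between Fgf4 and Fgf15, stood at 0.00245 CPM contralaterally and 0.284 CPM ipsilaterally in control mice, and at 0.00497 and 0.278 CPM in cKO mice. Gm26793 is antisense to Fgf15 and shares 761 bases, 24.9% of the exon bases of Fgf15, so reads over that shared stretch cannot be assigned to either gene unless the counting used strand.

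Other genes around Fgf3, chosen after their values were seen, moved less. Ano1, a chloride channel gene on the other side of Fgf3, rose from 12.1 to 18.1 CPM in control (log2 0.58, SE 0.07, adjusted p = 2.013e-06) and by log2 0.55 in cKO mice (adjusted p = 3.686e-06). LTO1 rose by log2 0.12 and 0.11 (adjusted p = 0.0272 and 0.0392). Ccnd1, the cyclin D1 gene, gave 0.16 and -0.13 and was not called (adjusted p = 0.228 and 0.335), nor were Fadd, Bc1 and Tpcn2 in either genotype. Ipsilateral Fgf15 differed by range of mouse numbers in the same direction as Fgf3, at 0.9004 to 1.34 CPM in mice 61 to 65 and 0.569 to 0.983 CPM in mice 95 to 100, but with overlap.

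**Figure D4:**
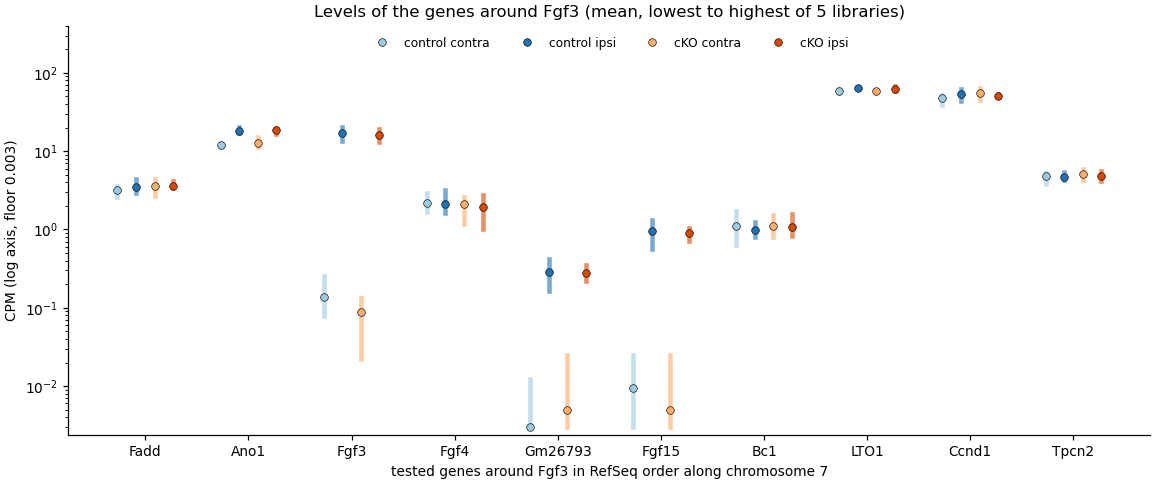
CPM of the tested genes around Fgf3 in RefSeq order along chromosome 7, on a log axis with values under 0.003 drawn at 0.003; points are means of 5 libraries and bars run from the lowest to the highest. Fgf3, Gm26793 and Fgf15 stand far higher in both ipsilateral groups, while Fgf4 stays at 1.02 to 3.23 CPM in all 4 groups.

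Of the other FGF genes, 7 were tested. Apart from Fgf15 and Fgf21, which passed the low-count filter entirely or mainly through ipsilateral libraries, 3 of 5 were called between sides in control and 2 of 5 in cKO mice, where 29.9% and 31.3% of all tested genes were called. Fgf5, a ligand that ends the growth phase of hair, fell by 0.66 on the log2 scale in control (adjusted p = 2.792e-05) and by 0.65 in cKO mice (adjusted p = 3.287e-05). Its ipsilateral levels of 1.78 to 2.39 CPM in control mice lay below the contralateral 3.02 to 3.52 CPM in every library. Fgf22, a presynaptic organiser in the brain, fell by 0.48 and 0.46 (adjusted p = 0.000277 and 0.000414). Fgf20 gave -0.14 and -0.04 and was not called (adjusted p = 0.0819 and 0.681).

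Fgf10, a mesenchymal ligand, rose by log2 0.71 (SE 0.24) in control mice (adjusted p = 0.0294), from 0.209 to 0.332 to 0.358 to 0.452 CPM. That call was lost without any of H62, H63, H65 or H97 (log2 0.65 to 0.71). In cKO mice Fgf10 gave -0.37 (SE 0.23) (adjusted p = 0.244), and the interaction was -1.08 (SE 0.33) (adjusted p = 0.485). Fgf21, an endocrine FGF of the stress response, had 0 to 34 reads per library and in cKO mice 0 to 9 contralaterally and 6 to 34 ipsilaterally. It passed the low-count filter mainly through ipsilateral libraries, so its test between sides is not used. Fgf6 with 0 to 8, Fgf8 with 0 to 1, Fgf16 with 0 to 12, Fgf17 with 0 to 6 and Fgf23 with 0 to 18 reads per library were not tested.

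Of the receptors, Fgfr1 was at 239 to 274 CPM over the 20 libraries, Fgfr2 at 3.65 to 12.3 and Fgfr3 at 1.25 to 2.70; Fgfr4, with 0 to 20 reads per library, was not tested. In control mice 1 of 6 tested receptor and co-receptor genes was called, where 29.9% of all tested genes were: the decoy-like receptor Fgfrl1 rose by log2 0.60 (SE 0.13) (adjusted p = 0.000903). Kl, the co-receptor klotho, gave -0.49 (SE 0.33) there and was not called (adjusted p = 0.310), although its ipsilateral levels of 1.79 to 2.25 CPM did not overlap the contralateral 2.54 to 3.36 CPM. The co-receptor gene Klb, with 2 to 25 reads per library, was called in neither genotype (adjusted p = 0.711 and 0.105). In cKO mice 3 of 6 were called, against 31.3% of all tested genes, Fgfrl1 higher at 0.35 (adjusted p = 0.0363), and Kl and Fgfr1 lower at -1.10 and -0.09 (adjusted p = 0.0153 and 0.0208). Each of these 3 cKO calls was lost on leaving out some of the mice: Fgfrl1 without any of H61, H63, H64, H97, H99 or H100 (0.30 to 0.38), Kl without H95 (-0.92), and Fgfr1 without any of H95, H99 or H100 (-0.08 to -0.07). All 3 were also lost with only the libraries compared, at 0.37, -1.08 and -0.07. Contralateral Kl was 2.97, 2.62, 7.20, 2.70 and 10.1 CPM in cKO mice, high in H95 and H100, against 2.54 to 3.36 CPM in control mice. Among the contralateral libraries H95 had the highest sum of cartilage and tendon markers, 141 CPM against 22.04 to 53.04, and H100 that of skeletal muscle markers, 1722 CPM against 4.74 to 377, whereas H64, with the highest fibroblast marker sum, had the lowest Kl of the cKO group. Between sides in cKO mice 5 of 6 cartilage and tendon markers fell and 0 of 6 muscle markers were called, where 15.1% of all tested genes were lower. The median log2 difference was -3.48 for the muscle markers and -1.93 for the cartilage and tendon markers. The part of these markers in the Kl values was not tested. Fgfr2 gave 0.33 and -0.43 and Fgfr3 0.37 and -0.05, none called (adjusted p = 0.389, 0.235, 0.122 and 0.872).

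Among 18 FGF-binding proteins, heparan sulphate carriers and heparan sulphate enzymes, 6 rose and 2 fell in control mice and 6 rose and 1 fell in cKO mice. Over all tested genes 13.8% were higher and 16.0% lower in control, and 16.2% and 15.1% in cKO mice. Flrt3, a membrane protein that binds FGF receptors, had the largest rise, log2 3.30 (SE 0.09) in control (adjusted p = 2.285e-15) and 3.59 (SE 0.09) in cKO mice (adjusted p = 6.395e-16). Sdc1, a heparan sulphate proteoglycan, rose by 0.98 and 1.15 (adjusted p = 4.592e-09 and 3.634e-10), while the Flrt3 relative Flrt1 fell by 0.52 in both (adjusted p = 3.848e-06 and 4.033e-06). The median of the list was 0.21 in control and -0.03 in cKO mice, beside -0.00 and -0.03 over all tested genes.

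Of 16 adaptors and kinases downstream of the receptors, 1 rose and 3 fell in control mice, with Grb2 at 0.25 (adjusted p = 3.146e-07) and the neuronal adaptor Frs3 at -0.43 (adjusted p = 1.900e-06). In cKO mice 3 rose and 2 fell, with Grb2 at 0.28 (adjusted p = 4.870e-08) and Frs3 at -0.43 (adjusted p = 1.908e-06). The shares called, 25% and 31.25%, were below and near those over all tested genes, 29.9% and 31.3%. Of 13 tested targets and feedback inhibitors, 1 rose and 4 fell in control and 2 rose and 2 fell in cKO mice. Etv5 rose by 0.41 and 0.61 (adjusted p = 7.372e-08 and 1.814e-10), whereas Etv1 fell by 0.41 and 0.46 (adjusted p = 0.00116 and 0.000387). Among the inhibitors, Spry4 fell by 0.49 in control mice (adjusted p = 0.00173), while in cKO mice Spry2 rose by 0.29 (adjusted p = 0.000143) and Il17rd fell by 0.37 (adjusted p = 0.000812). The medians of the target list were 0.02 in control and -0.07 in cKO mice.

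Of the sodium channels and the scaffold that intracellular FGFs bind, 8 of 13 fell and none rose in control mice, where 16.0% of all tested genes were lower. Scn1a, a sodium channel gene, fell by 0.45 on the log2 scale (SE 0.08) (adjusted p = 0.000142). In cKO mice 3 of 13 fell and none rose, where 15.1% of all tested genes were lower. The called genes included Scn1a at -0.40 (adjusted p = 0.000490) and Scn2b at -0.20 (adjusted p = 0.0178), a call lost without H61, H95 or H100 (-0.18 to -0.15). The list median was -0.22 in control and -0.08 in cKO mice, beside -0.03 and -0.09 for the sensory neuron markers, and the interaction was called for 0 of the 13. Between genotypes, the only called genes of all these lists were Hs2st1, a heparan sulphate enzyme, at -0.15 (adjusted p = 0.0300) and Jun at -0.21 (adjusted p = 0.0278), both on the contralateral side. That count of 2 ran from 0 to 22 on leaving out a mouse, with 22 reached without H99, and DESeq2 gave 13. Jun belongs to a list of 8 genes of axotomised neurons, all of which rose on the ipsilateral side in both genotypes. Over all tested genes 13.8% were higher in control and 16.2% in cKO mice.

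The genes whose levels most resembled those of Fgf3 over the 20 libraries, by Pearson correlation of log2 CPM among 17309 genes with a symbol and a mean of at least 1 CPM, were Junos (r = 0.996), Fst (0.996), Jun (0.995), Flrt3 (0.994) and Ndel1 (0.994). All the libraries fall into 2 sides, so r measures that a gene separates the sides as sharply as Fgf3 does. Fst, which encodes the activin antagonist follistatin, had means of 3.15 and 18.3 CPM on the 2 sides in control mice and 2.68 and 19.03 CPM in cKO mice, and Flrt3 of 19.1 and 189 CPM and of 15.9 and 192 CPM. Within groups, once the group means were removed, Fgf1 and Fgf12 went together (r = 0.847) and Fgf2 and Fgf13 went opposite ways (r = -0.76). These are descriptions over 20 libraries in which all the genes share a library's depth and cell content.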

How the data were processed

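Libraries were stranded mRNA libraries read as pairs, per the labels' protocols. HISAT2, Picard, mm10 and mm39 are named in the submitters' processing notes, without role or order; the counting program, annotation release and strand setting are not given in the sources used here. The authors deposited whole-number exonic counts per gene without normalization, and FPKM, which in 21541 of 21541 genes with enough counts equalled CPM without TMM scaling divided by 1 length per gene; for the FGF genes that length was the gene span of GENCODE M21. The label field that names a spinal cord injury was set aside in favour of the protocol, where the sciatic nerve is transected. The shortened title of mouse H61 was read from its library name.

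Symbols came from GENCODE M21 (51487 of 78258 identifiers, 98.1% of the counts). All 20 libraries entered 1 fit of 4 group means in edgeR 4.0.16 under R 4.3.3 (TMM, filterByExpr with a minimum count of 10 and total of 15, robust quasi-likelihood test), with Benjamini-Hochberg adjustment over 28564 genes in each of 5 comparisons; the threshold for a call was an adjusted p of 0.05. The code was tested on simulated data. Reads carried no molecular identifiers, so intervals from counts cover counting error only. Mice, not technical repeats, are the replicates.

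The contralateral and ipsilateral libraries of a number come from the same mouse, per the labels. Across genes, the departures of both libraries from their group means correlated with a median r of 0.186 over 10 mice (-0.0546 to 0.361), above 0.1 in 7. Mouse as a replicate block was an alternative, beside DESeq2 1.42.0, limma 3.58.1 (voom with mouse as a random effect, or log2 of FPKM plus 1 or 0.1), RLE size factors, other low-count filters, a covariate for mouse number range, fits of only the compared libraries, and leaving out each mouse. Lists were described by counts and medians, without a set test. The genes, lists and tests were chosen with earlier results of these data known. Named from a list were the called genes with the 2 highest and 2 lowest log2 differences, or fewer; Fgfr1, Fgfr2, Fgfr3 and all FGF genes were always named, and the 5 genes most like Fgf3 were those with the highest correlation. The values of 1 listed gene are not reported here.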

Additional observations from a re-analysis of the deposited data

Results flagged for a closer look

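In 80 groups of 5 libraries 7 had 1 library whose gap to its nearest neighbour exceeded 0.71 of the range of the group, where chance gives about 4, or 1 in 20. Among the 10 FGF genes these were Fgf11 in control contralateral ganglia, where H62 was lowest at 14.2 CPM against 22.04 to 23.5 in the others (gap 0.844 of the range); Fgf12 in control ipsilateral ganglia, where H65 was highest at 353 CPM (0.772); Fgf14 in control ipsilateral ganglia, where H97 was highest at 1.91 CPM (0.808); and Fgf18 in cKO ipsilateral ganglia, where H61 was highest at 12.1 CPM (0.747). Among the other FGF genes they were Fgf4 in control ipsilateral ganglia, highest in H96 at 3.23 CPM (0.773), Fgf10 in control contralateral ganglia, highest in H96 at 0.332 CPM (0.807), and Fgf15 in cKO contralateral ganglia, where H100 alone had reads, at 0.0248 CPM (1.000).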

How the results depend on the processing

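Between sides, the contrast used to choose the genes, 7 of the 10 FGF genes passed the threshold in control mice and 6 to 8 in cKO mice under the alternatives and on leaving out each mouse, where 29.9% and 31.3% of all tested genes passed it in the reported fit; nothing is read from these counts. Between genotypes and by the interaction, 0 of the 10 were called under any of them. In cKO mice Fgf2 gained its call with the replicate block (0.18), with voom (0.18), without a filter (0.19) and without H65 (0.18) or H95 (0.22), Fgf12 lost it when only the libraries compared were fitted (-0.13), Fgf14 lost it on log2 FPKM plus 1, and Fgf1 gained it on both log2 FPKM scales. The replicate block changed no other call of the 10 genes. Changes of sign arose only in values that were not called, 16 of 50. They were, by alternative: without a filter, Fgf1 between sides in control mice (0.00028) and the Fgf18 interaction (0.0040); with only the libraries compared, Fgf1 between sides in control mice (0.0068) and Fgf18 between genotypes contralaterally (0.00033); on log2 FPKM, contralateral Fgf11 (0.0020, pseudocount 0.1), contralateral Fgf18 (0.0021 and 0.0055) and the Fgf3 interaction (-0.033, pseudocount 1); and with mouse number range as a covariate, ipsilateral Fgf3 (0.0034).

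Leaving out a mouse gave ranges across 0 between sides for Fgf1 (-0.018 to 0.025) and Fgf4 (-0.22 to 0.12) in control and Fgfr3 (-0.21 to 0.18) in cKO mice. Between genotypes contralaterally it did so for Fgf7 (-0.093 to 0.14), Fgf9 (-0.11 to 0.0058), Fgf11 (-0.15 to 0.036) and Fgf18 (-0.039 to 0.022), and ipsilaterally for Fgf2 (-0.059 to 0.0054), Fgf3 (-0.15 to 0.0032), Fgf12 (-0.036 to 0.0013), Fgf13 (-0.040 to 0.0052) and Fgf18 (-0.079 to 0.016). For the interaction it did so for Fgf9 (-0.096 to 0.0047), Fgf11 (-0.068 to 0.10), Fgf12 (-0.014 to 0.059), Fgf13 (-0.028 to 0.027) and Fgf18 (-0.042 to 0.024). The causes were not tested.

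In the pathway, axotomy and other FGF lists together, 38 genes were called between sides in control mice (35 to 46 under the other fits and 32 to 42 on leaving out a mouse) and 34 in cKO mice (27 to 40 and 28 to 36). Over all tested genes 29.9% and 31.3% were called. The pooled counts include all 8 listed axotomy genes. They also include Fgf15, and in cKO mice Fgf21, whose tests between sides are not used. Nothing is read from these pooled counts. Between genotypes contralaterally 2 were called, against 13 with DESeq2, 1 with voom, 0 with a covariate for mouse number range, 0 with only the libraries compared, 0 on log2 FPKM plus 1, 0 on log2 FPKM plus 0.1, and 0 to 22 on leaving out a mouse. The interaction gave 0, or 0 to 1 on leaving out a mouse. Contralateral Fgf3 rests on 2 to 24 reads per library, so its ratio between sides is bounded by counting; Fgf15 and Fgf21 are limited in the same way.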
